A study of Rattus with 6 samples.

Results

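Expression of 10 imprinted genes of the growth network around H19 and Igf2 was followed in bone marrow mesenchymal stem cells (BMSCs), the adherent stromal cells of the marrow, from rats with chronic kidney disease (CKD) and from healthy rats. The 10 genes are H19, Igf2, Igf2r, Plagl1, Peg3, Cdkn1c, Grb10, Ndn, Slc38a4 and Sgce, and each was found by its symbol among the 16690 genes of the deposited table. They were chosen with the difference between CKD and control in these libraries already known, so their values in that contrast are a description and carry no test. Sprague Dawley rats without a named mutation gave the cells, which were grown from femur and tibia, and no source used here says how CKD was induced or how old the animals were. Both groups were gated as CD29+ CD90+ CD34- CD45-, per the labels' protocols, and each has 3 libraries made from poly-A RNA. The extract protocol names exosome RNA, while the titles and the design text name the cells, and the libraries are called cells here on the strength of the latter.

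Imprinted genes are transcribed mainly from the copy inherited from 1 parent, and many of them set the rate of growth before and shortly after birth. H19 and Igf2 share a domain with a control region that CTCF binds on the unmethylated maternal copy, where shared enhancers then act on H19. On the paternal copy methylation keeps CTCF off, and the enhancers act on Igf2. H19 is a long noncoding RNA and the host of a microRNA, and Igf2 encodes insulin-like growth factor 2, a growth factor that signals through the type 1 IGF receptor. Both are abundant in fetal tissue and are turned down in most tissues after birth.

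The libraries held between 34404037 and 46892613 fragments. Across genes, which are not independent replicates, Pearson r was 0.997 between CKD replicates 2 and 3 and 0.999 between control replicates 2 and 3. Replicate 1 of each group stood apart from those pairs, and the 2 libraries correlated with each other at r = 0.982. CKD replicate 1 correlated less with CKD replicates 2 and 3 (r = 0.961 and 0.966) than with control replicates 2 and 3 (r = 0.973 and 0.970). Control replicate 1 correlated at r = 0.972 and 0.970 with control replicates 2 and 3, and at 0.960 and 0.964 with CKD replicates 2 and 3. For 1 library of each group (CKD replicate 1 and control replicate 2) the disease model tag names the opposite group, and the groups here follow the titles and column codes. Library names share a start between CKD replicates 1 and 3 and between control replicates 1 and 2, and nothing ties each library to its own animal, so the SDs measure the spread between these libraries. Values below are FPKM (fragments scaled by the length of the gene and the depth of the library), and differences are CKD minus control on the log2(FPKM + 1) scale, which understates low genes.

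H19 was high in all CKD libraries and close to absent in all control libraries. Its level was 12.5, 136 and 82.8 FPKM in CKD replicates 1, 2 and 3, and 0.0459, 0.0618 and 0.0112 FPKM in control replicates 1, 2 and 3. The groups did not overlap, and the CKD libraries themselves were spread over an order of magnitude, with replicate 1 lowest. In fragments, the control values rest on 5, 6 and 1 against 1120, 10861 and 8285 in the CKD libraries. The 12 control fragments together have an exact Poisson 95% interval of 6.20 to 21.0, which covers counting error only. The mean was 77.0 ± 61.8 FPKM (SD, n = 3) in CKD and 0.0396 ± 0.0259 (SD, n = 3) in control, a ratio of 1943. On the log2(FPKM + 1) scale the difference was 5.69 ± 0.85 (SE). In the authors' deposited table H19 has a log2 fold change of 10.80, which ranks 1 among all genes of that table by fold. In such bulk libraries, fewer cells that make H19 and less H19 per cell cannot be told apart.

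Igf2 had the same order as H19 within the CKD libraries, at a far lower level. The CKD libraries had 0.350, 4.91 and 3.51 FPKM in the order of replicates 1, 2 and 3, and the controls 0.0330, 0.0168 and 0.0404 FPKM. The groups did not overlap, and CKD replicate 1 again was the lowest of its group. Those values are 96, 1201 and 1074 fragments in CKD and 11, 5 and 11 in control, and the 27 control fragments have a Poisson interval of 17.8 to 39.3. The mean was 2.92 ± 2.33 FPKM (SD, n = 3) against 0.0301 ± 0.0120 (SD, n = 3), a ratio of 97.2. The difference was 1.68 ± 0.56 (SE) on the log2(FPKM + 1) scale. Igf2 reached 1 FPKM in only 2 libraries and so did not enter the set of tested genes. The authors' deposited table gives it a log2 fold change of 6.49, rank 38 by fold.

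Per length, H19 exceeded Igf2 by 35.7, 27.7 and 23.6 times in CKD replicates 1, 2 and 3. In the controls the same ratio was 1.39, 3.67 and 0.278, from so few fragments that its order among them carries no meaning. Over the 6 libraries H19 and Igf2 correlated at Pearson r = 0.949 on the log2(FPKM + 1) scale, which placed H19 at rank 545 among tested genes by likeness to Igf2. The r is a description, since 4 of the libraries form the alike pairs above.

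**Figure D1:**
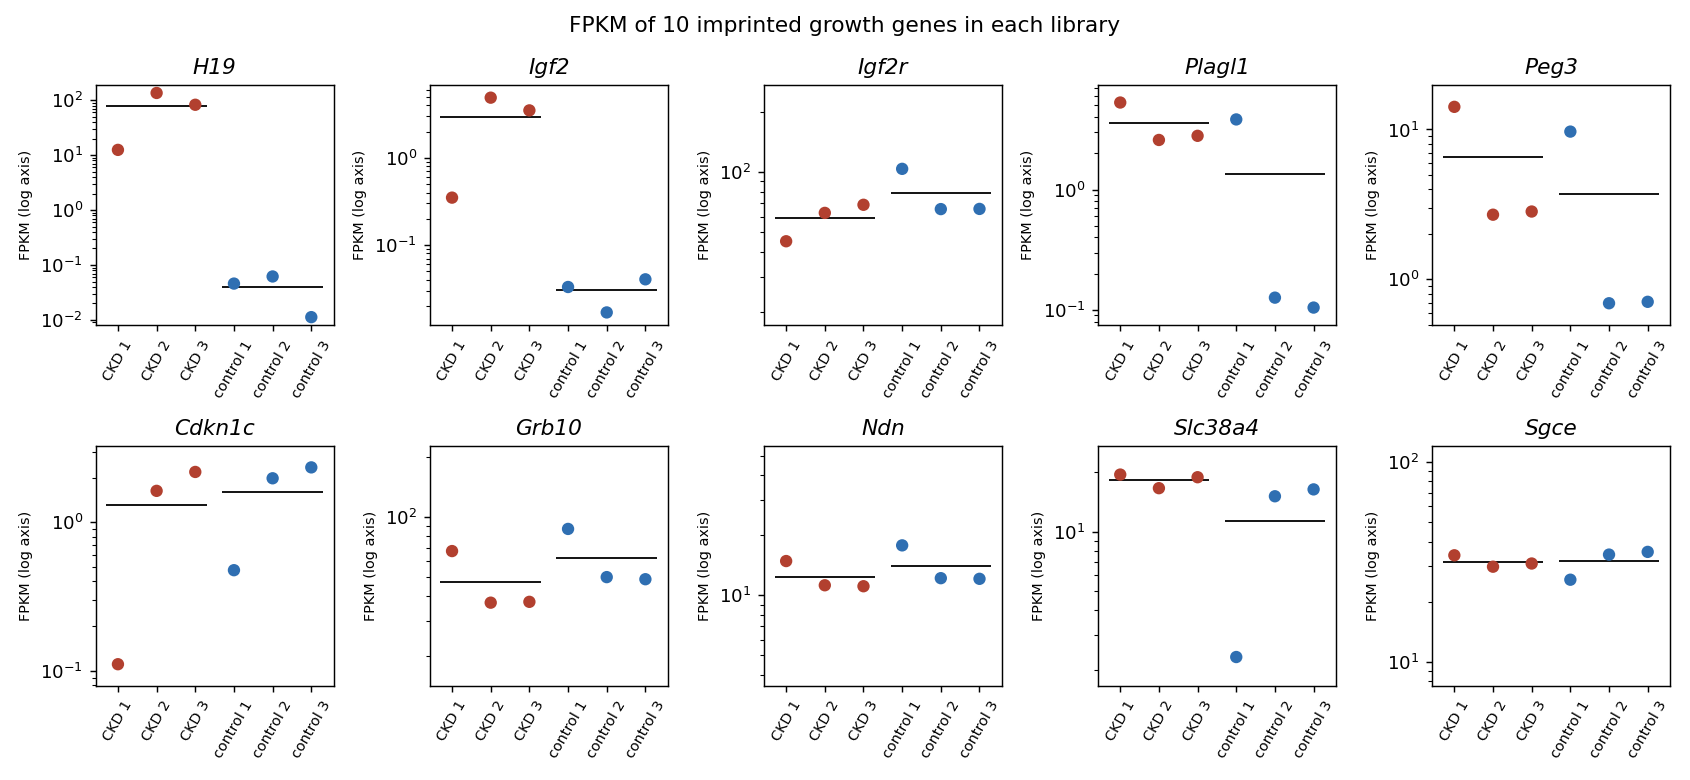
Expression of the 10 imprinted growth genes, 1 panel per gene, in FPKM on a log axis that differs between panels, with 1 point per library (red CKD, blue control) and a line at each group mean (n = 3). H19 and Igf2 are higher in each CKD library than in any control. H19 spans 12.5 to 136 FPKM against at most 0.0618, and Igf2 0.350 to 4.91 FPKM against at most 0.0404. For Plagl1, Peg3, Grb10 and Ndn replicate 1 of both groups lies above the other libraries.

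Igf2r, the mannose 6-phosphate receptor that takes IGF2 up for degradation, had a level of 45.1, 62.6 and 68.7 FPKM in CKD and 104, 65.4 and 65.5 FPKM in control. Replicate 1 held the lowest value of the CKD group and the highest of the control group, and the groups overlapped. The difference was -0.39 ± 0.24 (SE). With replicate 1 of each group left out, the ratio of means was 1.00, while with the mean of haematopoietic markers as a covariate the difference was -1.002 ± 0.165 (SE).

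Grb10, an adaptor that dampens signalling from the insulin and IGF receptors, stood at 67.5, 37.2 and 37.6 FPKM in CKD and at 87.1, 50.0 and 48.8 FPKM in control. Replicate 1 was the highest of each group, and the groups overlapped. Within each replicate number the CKD library held 0.774, 0.745 and 0.770 times the control value, although the labels tie no number to an animal. The difference was -0.38 ± 0.33 (SE).

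Plagl1 encodes a zinc finger factor known to raise expression of other genes of the network, Igf2 and H19 among them. Its level was 5.29, 2.58 and 2.80 FPKM in CKD and 3.83, 0.127 and 0.105 FPKM in control. Control replicate 1 lay within the CKD range, so the groups overlapped, while control replicates 2 and 3 were far below every CKD library. Those low values rest on 29 and 22 fragments. The difference was 1.28 ± 0.63 (SE). Without replicate 1 of each group, a choice made after the data were seen, the ratio of means was 23.3.

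Peg3, a paternally expressed zinc finger gene with a role in growth and maternal behaviour, showed the same outline at a smaller ratio. It stood at 14.2, 2.70 and 2.84 FPKM in CKD and at 9.68, 0.694 and 0.709 FPKM in control. The groups overlapped, because replicate 1 was by far the highest of each. The difference was 0.93 ± 0.92 (SE), and without replicate 1 of each group the ratio of means was 3.95.

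Cdkn1c, which encodes the cyclin-dependent kinase inhibitor p57, was low throughout, at 0.111, 1.63 and 2.19 FPKM in CKD and 0.476, 1.98 and 2.35 FPKM in control. Replicate 1 of both groups lay below all other libraries, at 9 and 47 fragments, and the groups overlapped. The difference was -0.22 ± 0.50 (SE).

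Ndn, which encodes the growth-restraining protein necdin, varied little, from 11.1 to 17.8 FPKM over the 6 libraries. Its highest values were 14.9 FPKM in CKD replicate 1 and 17.8 FPKM in control replicate 1, the groups overlapped, and the difference was -0.16 ± 0.19 (SE).

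Slc38a4, a neutral amino acid transporter, was the third of the 10 genes whose groups did not overlap. The CKD libraries held 19.4, 16.6 and 18.8 FPKM and the controls 2.32, 15.1 and 16.3 FPKM. The gap between the groups is narrow except for control replicate 1, which alone was low. The difference of 0.98 ± 0.65 (SE) became 0.20 when control replicate 1 was left out.

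Sgce, which encodes epsilon-sarcoglycan, a membrane protein of the dystrophin-associated complex, was the steadiest of the 10 genes. It ranged from 25.7 to 35.5 FPKM with overlapping groups, and the difference was 0.0032 ± 0.14 (SE).

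The 10 genes thus did not move as 1 unit between the groups. By the ratio of the highest to the lowest library the order was H19, whose lowest value is a single fragment, then Igf2 (291), Plagl1 (50.5), Cdkn1c (21.2), Peg3 (20.4), Slc38a4 (8.37), Grb10 (2.34), Igf2r (2.31), Ndn (1.60) and Sgce (1.38). Of the 10, 9 passed the filter of at least 1 FPKM in at least 3 libraries, H19 only through its CKD libraries. At a limma adjusted p of 0.05, 1 of them was called, H19, beside 2.07% of all genes tested. Groups did not overlap for 3 of the 10, H19, Igf2 and Slc38a4, all higher in CKD, beside 27.8% of the tested genes and 25.5% of all genes in the table. Since these genes were chosen on this contrast, nothing is read from those counts. The median difference of the 9 was 0.0032, against 0.053 over all genes tested. The call of H19 is no test of it either, since H19 was chosen on this contrast. That call was lost when replicate 2 or replicate 3 of either group was left out. The difference of H19 ranged from 5.01 to 6.69 when single libraries were left out.

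**Figure D2:**
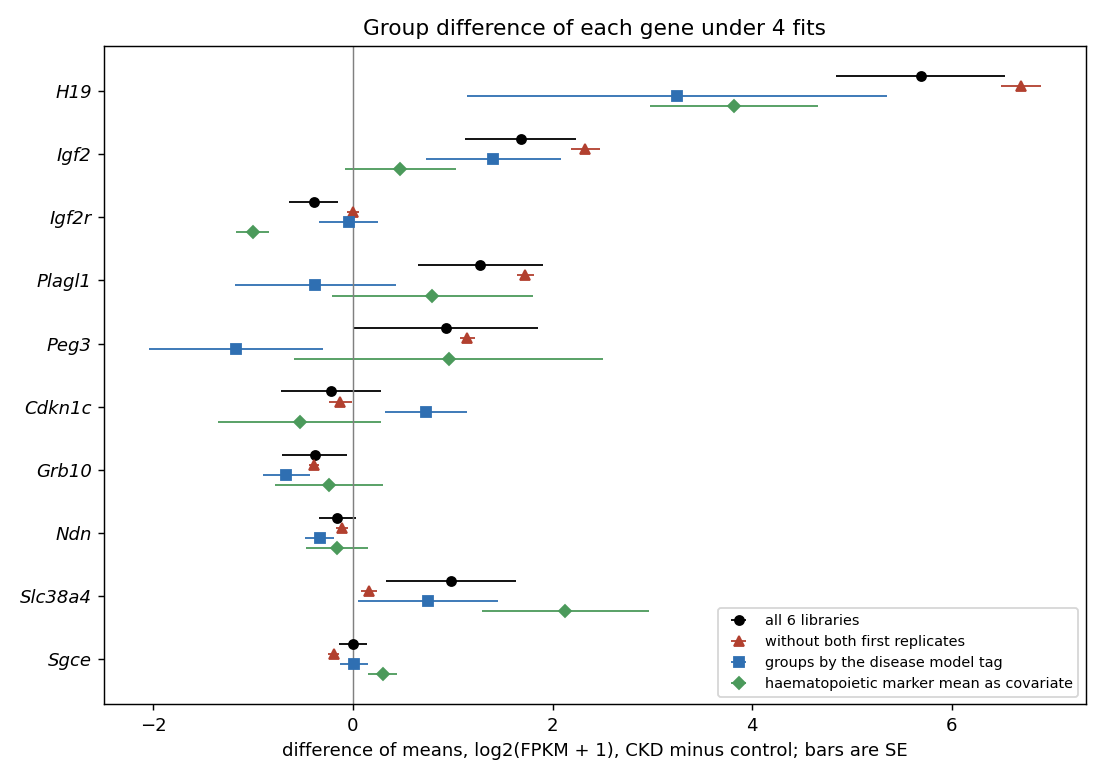
Difference between CKD and control on the log2(FPKM + 1) scale (x axis) for each of the 10 genes, as points with SE bars under 4 fits: all 6 libraries, without replicate 1 of each group, groups by the disease model tag, and the mean of the haematopoietic markers as a covariate. H19 lies at 3.25 or more in all 4 fits and Igf2 at 0.47 or more. Those lowest values have an SE of 2.11 for H19 (tag grouping) and 0.55 for Igf2 (covariate). Plagl1, Peg3 and Cdkn1c change sign when groups follow the tag, and Slc38a4 ranges from 0.16 to 2.13.

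Haematopoietic and macrophage markers also differed between the libraries, but their sum did not part the groups as H19 and Igf2 did. The summed level of 15 haematopoietic and macrophage markers was 288, 3161 and 2101 FPKM in CKD replicates 1, 2 and 3, and 379, 21.4 and 13.8 FPKM in control replicates 1, 2 and 3. Ptprc, which encodes the CD45 antigen that the cells were sorted against, had 15.5 and 11.4 FPKM in CKD replicates 2 and 3, against 0.783 and 1.33 FPKM in replicate 1 of CKD and of control and at most 0.0204 FPKM in the other controls. C1qc, a complement gene of macrophages, was listed at 0 in control replicates 2 and 3. Of these 15 markers, 12 were tested and 12 had positive differences. Cd74, 1 of the 3 left untested, went the other way with overlapping groups. It had 0.0180, 0.101 and 0.210 FPKM in CKD and 0.326, 0.0832 and 0.109 FPKM in control. Limma called 0 of the 12 tested markers at an adjusted p under 0.05, beside 2.07% of all genes tested. At an unadjusted p under 0.05 there were 9, beside 2354 of the 10638 genes tested. Between the replicates numbered 1, only 1 of the 15 markers had its higher value in the CKD library, while H19 stood at 12.5 FPKM there and at 0.0459 FPKM in the control library. With the mean of these markers as a covariate, the difference of H19 was 3.81 ± 0.84 (SE). That of Igf2 was 0.47 ± 0.55 (SE), less than its SE. In that fit Slc38a4 was at 2.13, Plagl1 at 0.80, Cdkn1c at -0.53, Sgce at 0.30 and Grb10 at -0.24, while Peg3 and Ndn stayed within 0.1 of their values without the covariate. Beyond these values, the part of such cells in the H19 and Igf2 levels was not tested.

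The myogenic markers Des, Myod1, Myog and Cdh15 were also highest in CKD replicates 2 and 3. Msc, another marker of that list, was lowest there, at 0.0314 and 0.0753 FPKM. It stood at 0.560 FPKM in CKD replicate 1 and at 0.220 to 0.346 FPKM in control. The 5 myogenic markers in the table summed to 1.37, 40.8 and 41.7 FPKM in CKD and to 0.763, 1.36 and 1.44 FPKM in control. Most of that sum was Des, which encodes desmin, and Myod1, the master regulator of muscle fate, was at 4.33 and 4.04 FPKM in those 2 libraries and listed at 0 in the controls. Pax7, Myf5, Chrna1 and Chrnd were not found in the deposited table. In CKD replicate 1, Des was at 0.729 FPKM, within the control range of 0.393 to 1.20 FPKM. Cdh15 was there at 0.0653 FPKM, from 9 fragments, against at most 0.0239 FPKM in control, and H19 at 12.5 FPKM. H19 is known to be abundant in muscle precursors, and the part of such cells in its level was not tested.

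Of 12 proliferation markers, 7 were called higher in CKD by limma with Benjamini-Hochberg adjustment, beside 1.33% of all genes tested. Among the 7 were Plk1, a mitotic kinase, and Mcm3, a subunit of the replicative helicase. The 12 markers summed to 103, 152 and 147 FPKM in CKD and to 45.0, 63.9 and 56.5 FPKM in control. All 12 were higher in CKD without overlap of the groups, beside 18.3% of all genes tested. The count of 7 was 0 when replicate 2 or replicate 3 of either group was left out. It was 12 without CKD replicate 1 and 11 without control replicate 1, beside 1602 and 1279 of the 10638 genes tested. It was also 0 with the haematopoietic covariate or with groups by the disease model tag, 2 without the filter and 4 by limma-voom, and all 12 differences were positive in each of these fits. Stromal markers summed to between 7080 and 12429 FPKM, most of it the collagens Col1a1 and Col1a2, and the sum was highest in replicate 1 of each group. Single markers differed: Col1a1, Col1a2 and Lum were highest in replicate 1 of each group, while Eng, Nt5e, Pdgfra, Pdgfrb and Cxcl12 were lowest there. Itgb1 and Thy1 were highest in CKD replicate 1 and lowest in control replicate 1 within their groups. Limma called 0 of the 10, beside 2.07% of all genes tested. At an unadjusted p under 0.05 there were 2, beside 2354 of the 10638 genes tested. Endothelial markers summed to at most 2.77 FPKM in any library. The part of cell division in the levels of the 10 imprinted genes was not tested.

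**Figure D3:**
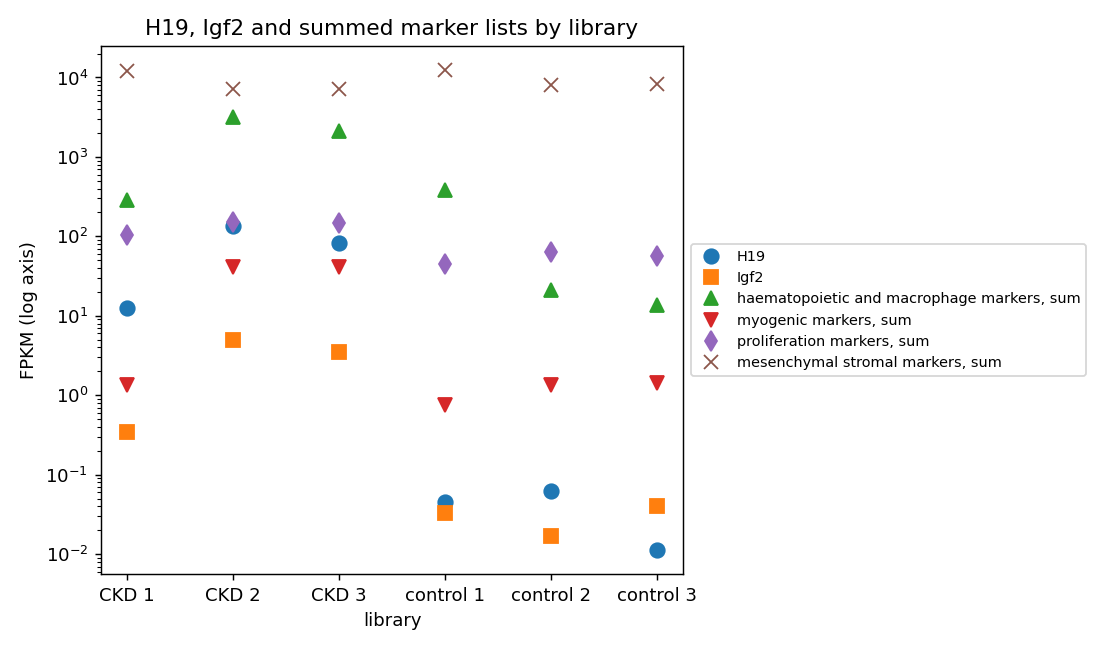
Summed FPKM of 4 marker lists in each library, on a log axis, beside the FPKM of H19 and Igf2, with 1 point per library. The haematopoietic sum is high in CKD replicates 2 and 3 (3161 and 2101 FPKM). In replicate 1 of CKD and control it is 288 and 379 FPKM, mostly Lyz2 (232 and 271 FPKM), and H19 is 12.5 and 0.0459 FPKM. The part of haematopoietic cells in the H19 level was not tested.

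Other imprinted genes were taken as a list of 58 symbols, drawn up with earlier results of these data known, of which 42 were in the table and 23 were tested. Limma called 0 of 23, beside 2.07% of all genes tested, and limma-voom on recovered counts also called 0. At an unadjusted p under 0.05 there were 2 higher and 3 lower, beside 2354 of the 10638 genes tested in either direction. No result about the list is read from such counts. Differences were positive for 9 and negative for 14, with a median of -0.13 against 0.053 over all genes tested. Groups did not overlap for 2 higher and 2 lower genes, beside 18.3% and 9.59% of all genes tested. Dcn, the proteoglycan decorin that binds collagen, had the largest difference among those named, at 256 ± 48.9 FPKM (SD, n = 3) in CKD and 38.7 ± 42.2 (SD, n = 3) in control, or 3.26 ± 0.77 (SE), with a limma adjusted p of 0.0985. Cd81, a tetraspanin near the H19 domain, stood at 343 ± 37.2 against 484 ± 61.9 FPKM, with a difference of -0.49 ± 0.14 (SE) and a limma adjusted p of 0.128. Peg10, the imprinted neighbour of Sgce, differed by 0.26 ± 0.17 (SE; adjusted p = 0.414), and Gnas, which encodes a G protein subunit, by -0.12 ± 0.12 (SE; adjusted p = 0.601). Qpct, a glutaminyl cyclase, differed by -0.52 ± 0.14 (SE; adjusted p = 0.121). Without CKD replicate 1 the call count was 1, beside 1602 of the 10638 genes tested. Without control replicate 1 it was 2, beside 1279.

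Other imprinted transcripts of the fetal growth network were low in most libraries. Dlk1, a Notch-like membrane protein of preadipocytes, stood at 0.145, 0.326 and 0.209 FPKM in CKD and at 0.0239, 1.01 and 1.28 FPKM in control, the latter from 3, 113 and 131 fragments. Its partner Meg3, a long noncoding RNA expressed from the opposite parental copy, reached 0.541 FPKM in control replicate 1 and at most 0.0123 FPKM elsewhere. Mest, a paternally expressed hydrolase-like gene, stayed between 0.378 and 1.12 FPKM with overlapping groups, and Phlda2, a maternally expressed restraint on placental growth, stayed at or under 0.189 FPKM. None of these entered the tested set.

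Genes that receive or regulate IGF2 formed a list of 26 symbols, 23 in the table and 19 tested, chosen in the same way. Limma called 0 of 19, beside 2.07% of all genes tested. At an unadjusted p under 0.05 there were 2 higher and 1 lower, beside 2354 of the 10638 genes tested in either direction. Limma-voom called 0, and nothing is read from these counts either. Positive and negative differences were 10 and 9, with a median of 0.042. Igf1r, the receptor through which IGF2 signals, differed by -0.15 ± 0.25 (SE; adjusted p = 0.764), and M6pr, the small mannose 6-phosphate receptor, stood at 98.8 ± 10.6 against 78.3 ± 3.75 FPKM (SD, n = 3 each; limma adjusted p = 0.152). The largest difference was that of Igf2bp2, an RNA-binding protein that binds Igf2 transcripts, at 3.46, 11.5 and 12.2 FPKM in CKD and 2.41, 1.67 and 1.53 FPKM in control. Its groups did not overlap and its difference was 1.67 ± 0.44 (SE), with a limma adjusted p of 0.120. Irs2, a docking protein below the receptor (0.34 ± 0.18 (SE), adjusted p = 0.319), and Pik3r1, a regulatory subunit of PI3 kinase (-0.60 ± 0.29 (SE), adjusted p = 0.292), did not pass either. The count was 3 without CKD replicate 1, where 1602 of the 10638 genes tested were called.

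Genes that copy or keep methylation and chromatin marks, at imprinted regions among others, were higher in CKD in 3 cases. The list held 26 symbols, of which 25 were in the table and 22 were tested, and limma called 3 higher and 0 lower, which is 13.6% of those tested. Of all genes tested, 1.33% were called higher and 0.733% lower. Differences in the list were positive for 21 of 22 (18 of 22 after rescaling by median-of-ratios factors), with a median of 0.20 against 0.053 over all genes.

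Uhrf1, which brings DNMT1 to newly copied DNA, rose from 0.807 ± 0.0581 FPKM (SD, n = 3) in control to 3.56 ± 0.330 (SD, n = 3) in CKD. Its libraries held 3.23, 3.89 and 3.56 FPKM against 0.747, 0.863 and 0.811 FPKM, without overlap, and the limma adjusted p was 0.0094. Dnmt1, the maintenance DNA methyltransferase, rose from 3.57 ± 0.0670 to 6.37 ± 0.743 FPKM (SD, n = 3 each; limma adjusted p = 0.0429), with 5.53, 6.92 and 6.67 FPKM in the CKD libraries. Ezh2, the methyltransferase of the Polycomb repressive complex, rose from 2.05 ± 0.0659 to 4.10 ± 0.519 FPKM (SD, n = 3 each; limma adjusted p = 0.0399), with 3.62, 4.65 and 4.03 FPKM in the CKD libraries. The groups did not overlap for any of these 3 genes, so replicate 1 of each group lay with its own group. Ctcf, which binds the H19 control region, differed by 0.27 ± 0.10 (SE; adjusted p = 0.210), and Trim28, the corepressor that holds methylated imprinted regions, by 0.36 ± 0.13 (SE; adjusted p = 0.183). Hells, a chromatin remodeller (0.58 ± 0.12, adjusted p = 0.0849), Suz12, a Polycomb subunit (0.34 ± 0.08, adjusted p = 0.0856), and Tet3, which oxidises methylated DNA (0.28 ± 0.11, adjusted p = 0.226), did not pass the threshold either. The list count was 0 when replicate 2 or replicate 3 of either group was left out, 5 without CKD replicate 1 and 7 without control replicate 1. Of the 10638 genes tested, the latter 2 fits called 1602 and 1279. Without replicate 1 of both groups together it was 16, beside 55.0% of all genes tested. Uhrf1, Dnmt1 and Ezh2 are known to be made mostly by dividing cells, the proliferation markers above moved in the same libraries, and their part in this result was not tested.

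**Figure D4:**
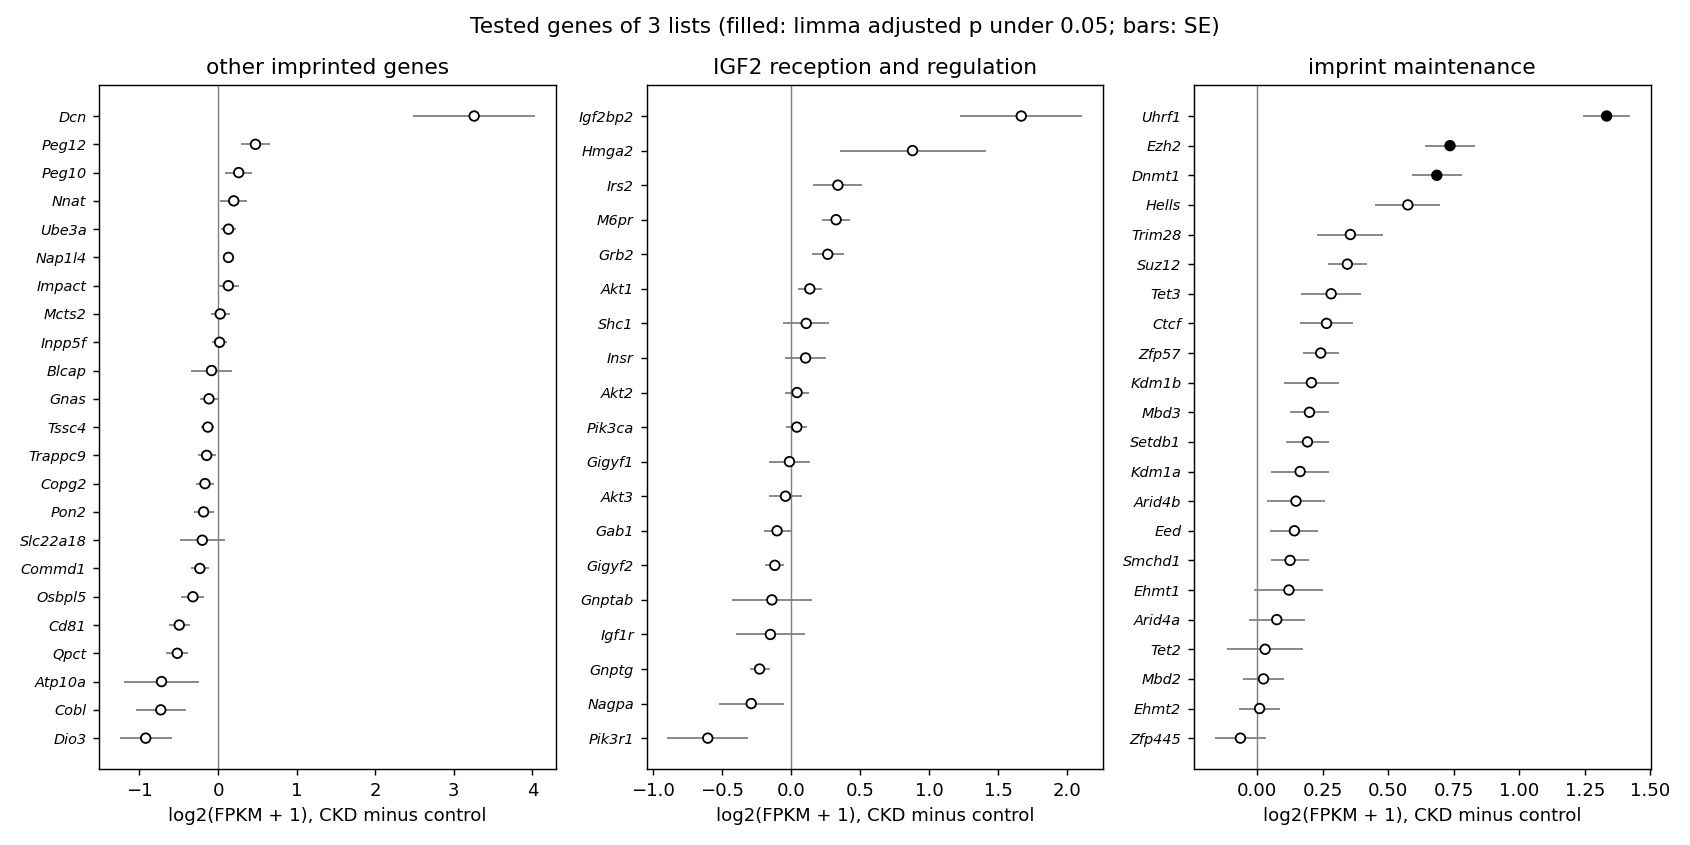
Difference between CKD and control, log2(FPKM + 1), for each tested gene of the 3 lists, with SE bars, filled points for a limma adjusted p under 0.05, and an x axis of its own in each panel. The imprint maintenance genes lie mostly above 0 (median 0.20), with Uhrf1, Ezh2 and Dnmt1 filled. The other 2 lists scatter about 0 (medians -0.13 and 0.042) with no filled point, where 2.07% of all genes tested were called.

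The neighbours of the 10 genes were read for their own values. Gene order was taken from a rat reference of another assembly, and the nearest 3 genes of the table on each side were read, a rule chosen after the data were seen. On either side of H19 and Igf2, Mrpl23, a mitochondrial ribosomal protein, stood at 44.2, 45.1 and 45.6 FPKM in CKD and 40.9, 39.6 and 37.6 FPKM in control, a difference of 0.19 ± 0.07 (SE; limma adjusted p = 0.183). Ins2 stayed at or under 0.114 FPKM and Ascl2 at or under 0.129 FPKM in every library. Over all 53 neighbours that are not among the 10 genes, 22 were tested and limma called 0, beside 2.07% of all genes tested. At an unadjusted p under 0.05 there were 5, beside 2354 of the 10638 genes tested, and limma-voom called 0. Groups did not overlap for 5 of the 22, beside 27.8% of all genes tested. Nothing is read from these counts. The neighbours named next were picked after their values were seen. Others, Utrn near Plagl1 among them, were lower in CKD without overlap. Near Sgce, Pon3, which missed the filter, was higher in CKD without overlap. It stood at 0.696, 4.20 and 3.68 FPKM against 0.602, 0.0825 and 0.0180 FPKM in control. Its difference was 1.52 ± 0.47 (SE). Near Ndn, Mkrn3 was at 0.546, 0.589 and 0.609 FPKM in CKD and at most 0.371 FPKM in control, without overlap. Near Peg3, Zim1 was at 0.233 and 0.327 FPKM in replicate 1 of CKD and of control and at most 0.0542 FPKM elsewhere. As for Peg3, replicate 1 of both groups lay above the other 4 libraries.

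The tested genes whose pattern over the 6 libraries was most like that of H19 were Zc3h13, Mcm3, Hdgf, Chaf1a and Rabepk, with Pearson r of 0.997, 0.997, 0.996, 0.996 and 0.996 on the log2(FPKM + 1) scale. For Igf2 they were Ptprj, Fth1, Tug1, Stat5a and Tifa, with r of 0.999, 0.999, 0.998, 0.997 and 0.997. Each was picked for its likeness, so r is a description, over libraries that include the alike pairs above. Of the other 8 imprinted genes, Plagl1 was the most like H19 (r = 0.52) and Grb10 the least (r = -0.63).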

How the data were processed

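Per the file headers, the table deposited by the authors gives FPKM for 16690 genes in each library. Its other columns are group means of normalized counts, p and q values, the ratio (fold change) and its log2. The submitters' processing notes name the build mRatBN7.2, the aligner HISAT2 2.1.0, the counter HTSeq 0.11.2 and the test DESeq2 1.22.2, with no settings. Whether strand was used in counting is not given in the sources used here, so overlapping antisense transcripts, as occur at Igf2 and Igf2r, cannot be told apart. No coordinates or sequences are given, since the reference used for names and gene order is another assembly (GRCr8).

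The 10 genes and all lists were chosen with earlier results of these data known. Named genes are the 10 genes, their lists' called members and genes fixed in the list rule. Any other was chosen after its values were seen. Groups follow titles and column codes. The contrast of CKD and control was fitted on log2(FPKM + 1) with limma 3.58.1 under R 4.3.3. The test was moderated with a trend, two-sided and without covariates, and its Benjamini-Hochberg threshold was 0.05. It ran on the 10638 genes that reached 1 FPKM in 3 or more libraries. Igf2 was fitted without that filter. Fragment counts were recovered from the deposited values (100140 of 100140 whole within 0.01) and served for depth and for the limma-voom alternative. The fit was tested on simulated data. Alternatives were a pseudocount of 0.1, no filter, rescaled FPKM, single libraries left out, other groupings, a marker covariate and limma-voom.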

Additional observations from a re-analysis of the deposited data

How the results depend on the processing

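The differences of H19 and Igf2 stayed positive under each alternative run, though not always beyond their SE. H19 ranged from 3.25 ± 2.11 (SE, groups by the disease model tag) to 10.33 ± 3.27 (SE, limma-voom). Igf2 ranged from 0.47 ± 0.55 (SE, haematopoietic covariate), less than its SE, to 5.87 ± 2.96 (SE, limma-voom). Peg3 was at -1.17 and Plagl1 at -0.38 under the tag grouping, and Cdkn1c at 0.73. With the conflicting tags removed Peg3 was at -0.18 and Cdkn1c at 0.38, and with single libraries left out Cdkn1c ranged from -0.59 to 0.24. H19 also lost its call without the filter, with the replicate block, under the tag grouping, with the covariate and by limma-voom. Neither the call nor its loss is a test of H19, which was chosen on this contrast.

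The count of called genes, 220 in the reported fit, was 133 without the filter, 112 by limma-voom (59 higher, 53 lower, against 142 and 78), 17 with the haematopoietic covariate, 88 with the replicate block and 5851 without replicate 1 of each group, an alternative chosen after seeing the data. Grouping by the tag gave 0 by limma, with 641 at an unadjusted p under 0.05. Leaving out 1 library gave 6 to 1602: 1602 without CKD replicate 1, 1279 without control replicate 1 and 6 to 9 without any of the other 4. Other imprinted genes, 0 as reported, gave 0 to 2 with 1 library left out and 13 without replicate 1 of each group. IGF2 genes, 0 as reported, gave 0 to 3, and 11, and 1 both with the conflicting tags removed and with libraries of 1 name start averaged. Imprint maintenance, 3 as reported, gave 0 to 7, 16 without replicate 1 of each group, 1 without the filter, with the block or with averaged libraries, and 0 under the tag grouping or the covariate. The cause was not tested.

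Reversed under the tag grouping were Peg10 (-0.11), Gnas (0.047), Igf1r (0.23), Qpct (0.053), Pik3r1 (0.21) and Tet3 (-0.017). With libraries left out Gnas ranged from -0.17 to 0.041 (the latter without replicate 1 of each group). Igf1r was at 0.061 with the conflicting tags removed and at 0.10 with the covariate.

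Same-numbered libraries deviated together at r = 0.036, -0.031 and 0.109 over the tested genes, and CKD replicate 2 did not correlate best with its own number. Such values cannot settle whether the numbers pair the libraries. With the replicate block the SE fell from 0.92 to 0.17 for Peg3 and from 0.33 to 0.06 for Grb10. It rose from 0.24 to 0.30 for Igf2r and from 0.14 to 0.15 for Sgce. In control libraries H19 and Igf2 rest on 1 to 11 fragments, which limits their ratio.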

Other observations

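Among the listed imprinted genes that missed the filter, Gatm and Pon3, the lactonase gene near Sgce given above, were chosen after their values were seen, because their groups did not overlap and CKD replicates 2 and 3 were highest, as for Igf2. Gatm, which makes the precursor of creatine, had 0.515, 6.71 and 4.86 FPKM in the CKD libraries. Its control values were 0.0282, 0.360 and 0.334 FPKM, from 3, 34 and 29 fragments. Neither gene was tested, and groups did not overlap for 25.5% of all genes in the table.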
